A study of Mus musculus with 10 samples.

Results

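The genes described here are 6 CXC chemokine ligands, Cxcl1, Cxcl2, Cxcl3, Cxcl9, Cxcl10 and Cxcl16. They were chosen by gene name as neutrophil-attracting and interferon-induced ligands, and they make up 6 of the 55487 genes of the count table. Of these genes, 29542 had at least 1 count and 13740 passed the filter on low counts, and all 6 ligands were among the genes tested. In ARG1+ cells Cxcl1, Cxcl2 and Cxcl3 were higher than in ARG1- cells, Cxcl9 and Cxcl10 were lower, and no difference of Cxcl16 was detected.

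The cells came from the spinal cords of 5 male C57BL/6 mice, 8 to 12 weeks old, that carried the Arg1tm1Lky allele, a reporter in which cells that express Arg1 also make yellow fluorescent protein (YFP). All 5 mice had experimental autoimmune encephalomyelitis (EAE), a model of multiple sclerosis, induced with a myelin peptide in complete Freund's adjuvant and pertussis toxin, and they were taken at peak disease. From every mouse, viable CD45+ CX3CR1+ cells without CD3 and Ly6G were sorted into 200000 YFP+ (ARG1+) and 100000 YFP- (ARG1-) cells, so that 5 ARG1+ and 5 ARG1- libraries of the same animals (m2, m6, m234, m235 and m236) were compared by RNA-seq. There were no cells of healthy animals in this comparison, and the gate does not separate monocyte-derived cells from border-associated macrophages. The reporter reads the activity of the Arg1 gene and not the amount of the enzyme.

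Chemokines are small secreted proteins that guide leukocytes along a gradient, and the CXC family is named for a single residue between its first cysteines. Cxcl1, Cxcl2 and Cxcl3 carry the amino acids Glu-Leu-Arg (ELR) before these cysteines and act through the receptor CXCR2 on neutrophils. Cxcl9 and Cxcl10 lack ELR, are induced by interferons and attract activated T cells and NK cells through CXCR3. Cxcl16 is made as a membrane protein that can be shed by proteases and binds CXCR6. In EAE, ligands of CXCR2 are known for the recruitment of neutrophils to the spinal cord, and ligands of CXCR3 for the positioning of T cells.

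The codons around the first cysteines are shown because they separate the groups of ligands by receptor. Each stretch is 30 bases of a coding exon, read from the GENCODE transcripts of GRCm38, and the capitals mark the 3 codons before the first cysteine codon.
Cxcl1: gccaatGAGCTGCGCtgtcagtgcctgcag
Cxcl2: gccagtGAACTGCGCtgtcaatgcctgaag
Cxcl3: gccagtGAGCTGCGCtgtcagtgcctgaac
Cxcl9: ataaggAATGCACGAtgctcctgcatcagc
Cxcl10: gcaaggACGGTCCGCtgcaactgcatccat
Cxcl16: agtgtcGCTGGAAGTtgttcttgtgatcgt
The marked codons spell ELR in Cxcl1, Cxcl2 and Cxcl3 and do not in Cxcl9, Cxcl10 and Cxcl16. The stretches lie at chr5:90891481-90891510 (Cxcl1), chr5:90904127-90904156 (Cxcl2) and chr5:90786353-90786382 (Cxcl3) on the plus strand. Those of Cxcl9 (chr5:92326836-92326865), Cxcl10 (chr5:92348175-92348204) and Cxcl16 (chr11:70459121-70459150) lie on the minus strand.

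Over their whole coding sequence, Cxcl2 and Cxcl3 shared 89.7% of aligned bases, and Cxcl1 shared 75.7% with Cxcl2 and 72.7% with Cxcl3. Cxcl9 and Cxcl10 shared 44.7%, and no pair with Cxcl16 shared more than 33.7%. The coding sequence of Cxcl16 spans 246 codons, against 96 to 126 codons in the other 5 genes. Because reads were 50 bases long, the stretches of this length that occur in another gene were counted. Of the 50-base stretches of Cxcl2, 3.28% also occurred in Cxcl3, and 6.31% of those of Cxcl3 occurred in Cxcl2, while none of Cxcl1 occurred in another gene. Reads from these stretches cannot be assigned to Cxcl2 or Cxcl3.

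In the genome (GRCm38), the genes fall into 2 clusters on chromosome 5 and a single locus on chromosome 11. Cxcl3 (ENSMUSG00000029379, chr5:90786103-90789600), Cxcl1 (ENSMUSG00000029380, chr5:90891241-90893115) and Cxcl2 (ENSMUSG00000058427, chr5:90903871-90905938) lie within 120 kb on the plus strand. This span holds 8 annotated genes, and the 3 ligands were the only ones tested. Cxcl9 (ENSMUSG00000029417, chr5:92321347-92328079) and Cxcl10 (ENSMUSG00000034855, chr5:92346638-92348889) lie within 27.5 kb on the minus strand, where Art3, which did not pass the filter, is annotated on the other strand. Transcripts of Art3 held 5.54% of the 50-base stretches of Cxcl10. Cxcl16 (ENSMUSG00000018920, chr11:70453983-70459984) lies on the minus strand, and exons of Zmynd15 on the other strand cover 20.5% of its exon bases. The use of strand during counting is not stated in the sources at hand, so reads of this overlap cannot be told apart. The level of Zmynd15 was 40.9 CPM in ARG1+ cells, against 43.2 CPM in ARG1- cells (log2 fold change -0.078, edgeR FDR 0.444).

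Promoter sequences were at hand for Cxcl1, Cxcl2, Cxcl3, Cxcl9 and Cxcl10 in RefSeq (GRCm38.p6), and they are shown to describe these genes. Their part in the differences of the ligands was not tested. Each run gives the 180 bases from 220 to 41 bases before the RefSeq start, 5′ to 3′ on the strand of the gene. Capitals mark matches, on either strand, to the NF-kB consensus motif (kappaB), the interferon-stimulated response element (ISRE, searched as GAAANNGAAA), the gamma-activated site (GAS, searched as TTCNNNGAA) or TATAAA.
Cxcl1: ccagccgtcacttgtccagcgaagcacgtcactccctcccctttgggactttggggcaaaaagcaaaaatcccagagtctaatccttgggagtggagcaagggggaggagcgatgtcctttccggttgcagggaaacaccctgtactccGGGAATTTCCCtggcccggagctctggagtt
Cxcl2: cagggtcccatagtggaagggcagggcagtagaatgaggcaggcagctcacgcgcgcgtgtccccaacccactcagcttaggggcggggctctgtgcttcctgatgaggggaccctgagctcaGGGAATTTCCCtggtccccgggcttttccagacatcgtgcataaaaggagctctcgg
Cxcl3: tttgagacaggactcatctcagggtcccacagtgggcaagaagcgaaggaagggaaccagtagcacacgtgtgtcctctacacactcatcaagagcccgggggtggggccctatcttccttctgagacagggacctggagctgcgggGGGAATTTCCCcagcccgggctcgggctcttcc
Cxcl9: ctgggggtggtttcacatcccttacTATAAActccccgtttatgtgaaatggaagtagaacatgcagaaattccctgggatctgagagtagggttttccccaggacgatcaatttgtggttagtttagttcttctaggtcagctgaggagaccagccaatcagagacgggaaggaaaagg
Cxcl10: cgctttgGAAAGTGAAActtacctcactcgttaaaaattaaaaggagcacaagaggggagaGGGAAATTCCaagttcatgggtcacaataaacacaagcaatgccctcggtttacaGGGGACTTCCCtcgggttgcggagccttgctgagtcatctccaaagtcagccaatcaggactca
These runs are chr5:90891025-90891204 (Cxcl1), chr5:90903679-90903858 (Cxcl2), chr5:90785881-90786060 (Cxcl3), chr5:92328120-92328299 (Cxcl9) and chr5:92348930-92349109 (Cxcl10).

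The promoters of Cxcl1, Cxcl2 and Cxcl3 held the same kappaB letters, read on both strands in overlapping frames, and they began 71, 97 and 73 bases before the start. Cxcl10 held matches that began 159, 104 and 103 bases before the start, of which the last 2 overlap. A kappaB match was present in 4 of the 5 promoters, and in 8.46% of the 32851 promoters of the same length. Cxcl10 alone held an ISRE match, 213 to 204 bases before the start, against 3.44% of all promoters. None of the 5 held a GAS match (8.30% of all promoters). TATAAA was present in Cxcl9 and, 30 to 25 bases before the start, in Cxcl3 (13.6% of all promoters). A match describes the letters only and is not a measured binding site.

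In the transcripts, the 3 ELR genes also carried the most copies of ATTTA, the core of AU-rich elements that shorten the life of many cytokine mRNAs. Behind the stop codon, Cxcl2 had 11 copies, Cxcl1 had 7 and Cxcl3 had 5. At least as many copies were present in 4.77%, 11.7% and 19.4% of 20148 coding genes, respectively. Cxcl9 had 3 copies and Cxcl10 and Cxcl16 had 2 each, numbers reached or passed by 33.0% and 44.3% of genes.

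Library totals ranged from 28870482 to 33826355 counts in ARG1+ and from 8396863 to 35455643 in ARG1- cells, and the ARG1- library of m234 was the only one below 28212174. Arg1, the gene behind the sort, had a mean of 814 ± 174 CPM in ARG1+ libraries and of 18.4 ± 4.96 CPM in ARG1- libraries (SD, n = 5 each) and was higher in 5 of 5 animals. Microglia markers (9 genes) summed to 772.7 to 1192.8 CPM in ARG1+ and to 848.5 to 3224.6 CPM in ARG1- libraries, and dendritic cell markers (11 genes) to 20.1 to 35.7 and 36.9 to 129 CPM. Both highest sums belonged to the ARG1- library of m234. Values without this library are therefore given for each ligand.

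Values are CPM, read counts relative to the library total, scaled by the TMM method. Log2 fold changes are ARG1+ over ARG1- from edgeR's quasi-likelihood test, and the false discovery rate (FDR) is adjusted over all 13740 genes. In these bulk libraries, fewer cells that express a gene and less RNA per cell cannot be told apart.

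**Figure D1:**
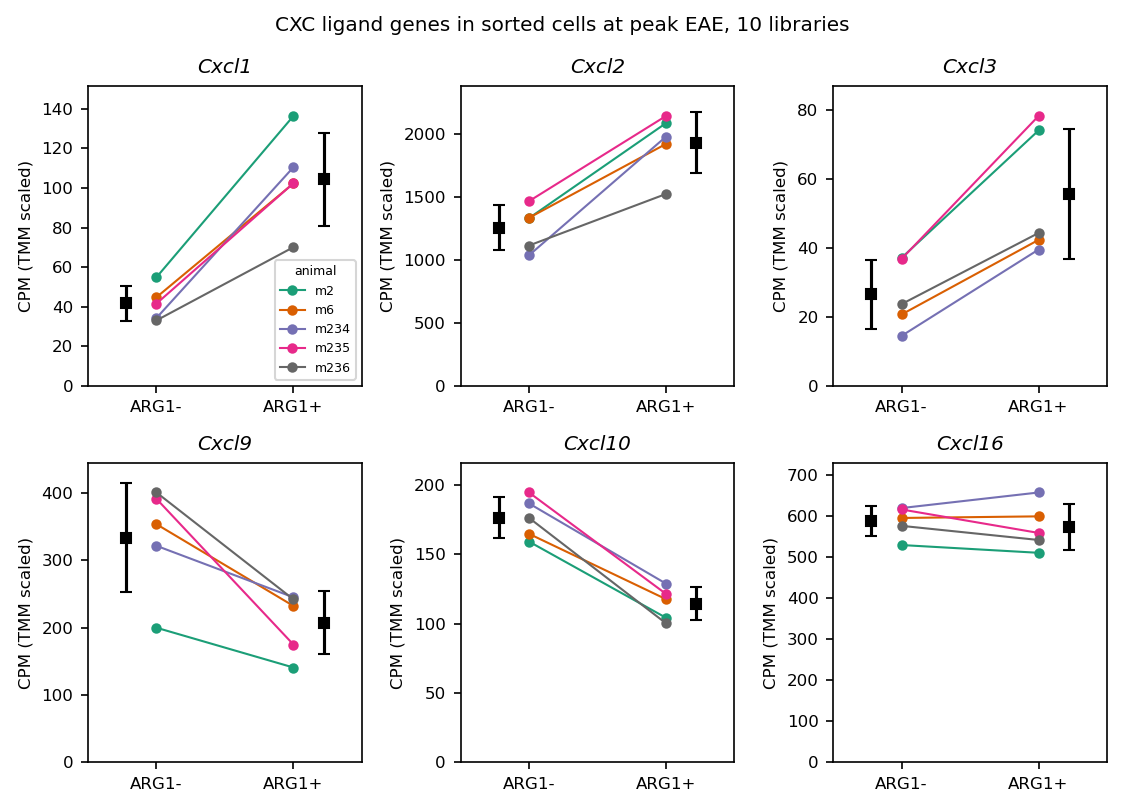
CPM (TMM scaled, linear axis from 0) of the 6 CXC ligand genes in the 10 libraries. Points are libraries, lines join both libraries of an animal, and black squares with bars are the mean and SD of 5 libraries. All 5 lines go up from ARG1- to ARG1+ for Cxcl1, Cxcl2 and Cxcl3, all 5 go down for Cxcl9 and Cxcl10, and 2 go up for Cxcl16.

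Cxcl1 encodes a CXCR2 ligand that is induced early in inflammation. In ARG1+ libraries it had 136.4 CPM in m2, 102.3 in m6, 110.5 in m234, 102.4 in m235 and 70.1 in m236. In ARG1- libraries it had 54.9, 44.8, 34.3, 41.6 and 33.1 CPM in the same order of animals. The groups did not overlap, m2 was highest in both, and m236 was lowest in both. The ARG1+ mean was 104.3 ± 23.7 CPM and the ARG1- mean 41.7 ± 8.85 CPM (SD, n = 5 each). The log2 fold change was 1.31 (SE 0.172, 95% interval 0.94 to 1.69, edgeR FDR 8.95e-04), a 2.49-fold higher level. Without the ARG1- library of m234 it was 1.26 (edgeR FDR 0.00202).

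Cxcl2, another CXCR2 ligand made in large amounts by activated macrophages, was the most abundant of the 6. In ARG1+ libraries it had 2088.8 CPM in m2, 1923.6 in m6, 1981.3 in m234, 2145.7 in m235 and 1525.8 in m236. In ARG1- libraries it had 1333.8, 1336.4, 1038.5, 1468.6 and 1116.1 CPM in these animals. The lowest ARG1+ library, m236, lay above the highest ARG1- library, m235. The ARG1+ mean was 1933 ± 243.8 CPM and the ARG1- mean 1258.7 ± 176.5 CPM (SD, n = 5 each). The log2 fold change was 0.62 (SE 0.114, 95% interval 0.37 to 0.87, edgeR FDR 0.00538), or 1.54-fold. Without the ARG1- library of m234 it was 0.56 (edgeR FDR 0.00944). By mean CPM Cxcl2 ranked 43rd of all tested genes in ARG1+ and 67th in ARG1- cells, and it took 0.150 to 0.209% of all counts in ARG1+ and 0.105 to 0.146% in ARG1- libraries.

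Cxcl3, a further CXCR2 ligand of the cluster, was the least abundant of the 6. In ARG1+ libraries it had 74.0 CPM in m2, 42.3 in m6, 39.5 in m234, 78.2 in m235 and 44.3 in m236. In ARG1- libraries it had 37.1, 20.7, 14.5, 36.8 and 23.7 CPM, and the lowest of these rested on 123 counts in m234. The groups did not overlap, and m2 and m235 were the highest animals in both groups. The ARG1+ mean was 55.7 ± 18.8 CPM and the ARG1- mean 26.6 ± 10 CPM (SD, n = 5 each). The log2 fold change was 1.04 (SE 0.268, 95% interval 0.46 to 1.63, edgeR FDR 0.0262). Without the ARG1- library of m234 it was 0.92 (edgeR FDR 0.0370). Omission of a single library brought the edgeR FDR above 0.05 for m2 (0.0676) and m235 (0.0532) among ARG1+ and for m6 (0.0639) and m236 (0.0571) among ARG1- libraries. Omission of an animal did so for m2 (0.0636), m6 (0.0844) and m236 (0.0759). Under a replicate block by animal, the log2 fold change of Cxcl3 was 1.06 (edgeR FDR 2.88e-06).

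Cxcl9, a CXCR3 ligand known as a target of interferon gamma, went the other way. In ARG1+ libraries it had 141.0 CPM in m2, 232.5 in m6, 245.3 in m234, 175.1 in m235 and 242.3 in m236. In ARG1- libraries it had 200.1, 353.9, 321.8, 391.6 and 401.0 CPM. The groups overlapped, because the ARG1- library of m2 lay below 3 of the ARG1+ libraries, but within each animal the ARG1+ library was the lower one. The ARG1+ mean was 207.3 ± 46.8 CPM and the ARG1- mean 333.7 ± 81.1 CPM (SD, n = 5 each). The log2 fold change was -0.69 (SE 0.195, 95% interval -1.11 to -0.26, edgeR FDR 0.0383). Without the ARG1- library of m234 it was -0.70 (edgeR FDR 0.0529). Omission of m2, m6 or m235 among ARG1+ libraries, of m6, m235 or m236 among ARG1- libraries, or of the whole animal m6, m234, m235 or m236 likewise brought the edgeR FDR to between 0.0517 and 0.132. Under a replicate block by animal, the log2 fold change of Cxcl9 was -0.68 (edgeR FDR 3.67e-04).

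Cxcl10, a CXCR3 ligand induced by interferons of type I and II and by NF-kB, was the most even of the 5 ligands that differed. In ARG1+ libraries it had 104.3 CPM in m2, 117.7 in m6, 128.9 in m234, 121.5 in m235 and 100.3 in m236. In ARG1- libraries it had 159.2, 164.8, 186.7, 194.6 and 176.3 CPM. The highest ARG1+ library stayed below the lowest ARG1- library, and the highest library of a group had at most 1.29 times the level of the lowest. The ARG1+ mean was 114.6 ± 12 CPM and the ARG1- mean 176.3 ± 14.7 CPM (SD, n = 5 each). The log2 fold change was -0.62 (SE 0.0809, 95% interval -0.80 to -0.44, edgeR FDR 8.6e-04). Without the ARG1- library of m234 it was -0.60 (edgeR FDR 0.00202).

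Cxcl16, the membrane-bound ligand that is also known as a scavenger receptor for oxidized lipids, was the second most abundant of the 6. In ARG1+ libraries it had 510.2 CPM in m2, 598.9 in m6, 657.0 in m234, 558.6 in m235 and 541.4 in m236. In ARG1- libraries it had 529.1, 595.0, 619.1, 615.7 and 575.8 CPM. The groups overlapped, with the ARG1+ library higher in m6 and m234 and lower in the other 3 animals. The ARG1+ mean was 573.2 ± 56.8 CPM and the ARG1- mean 586.9 ± 36.7 CPM (SD, n = 5 each). The log2 fold change was -0.034 (SE 0.0757, 95% interval -0.20 to 0.13, edgeR FDR 0.803), and without the ARG1- library of m234 it was -0.012 (edgeR FDR 0.941).

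Counted over the family, 3 of the 6 ligands were higher in ARG1+ cells at an FDR below 0.05, where 6.82% of all tested genes were. At the same limit 2 of the 6 were lower, against 6.15% of all tested genes. With a further limit of an absolute log2 fold change above 1, Cxcl1 and Cxcl3 were called higher (0.560% of all genes) and none was called lower (0.888% of all genes). At an unadjusted p under 0.05 the calls were the same 5, where 15.0% of all tested genes were higher and 15.0% lower. DESeq2 called 3 of the ligands higher and 2 lower, against 9.29% and 9.52% of the genes with an adjusted p, and limma-trend did so against 6.65% and 6.12%. Under a replicate block by animal, 3 ligands were higher (16.8% of all genes) and 2 were lower (18.3%). The values of the groups were apart for 3 ligands that were higher (6.15% of all genes) and for 1 that was lower (5.20%). In 5 of 5 animals, 3 ligands were higher (20.0% of all genes) and 2 were lower (21.0%). The members were picked with earlier results of these data known, so these counts describe the 6 genes and are not a test of the family.

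**Figure D2:**
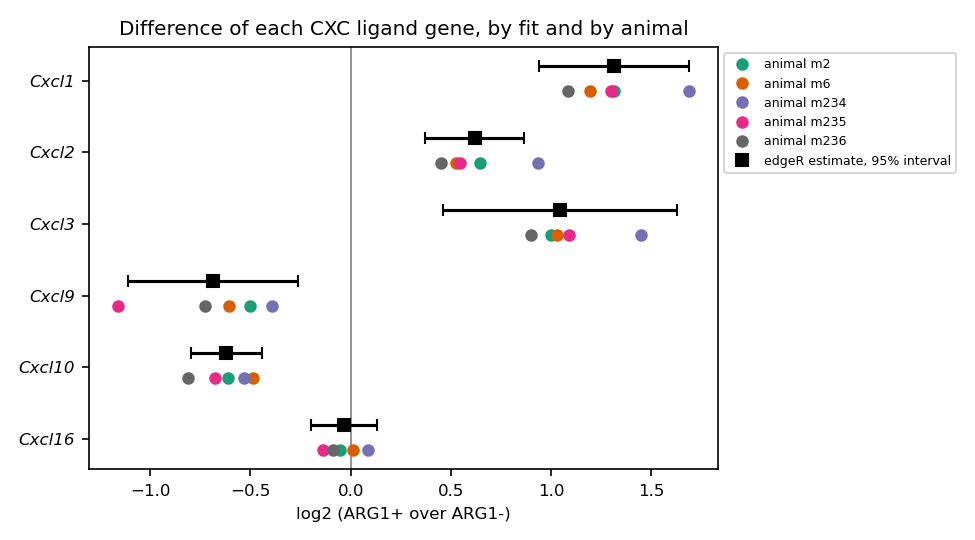
Log2 of the level in ARG1+ over that in ARG1- cells for each CXC ligand gene. Black squares with bars are the edgeR estimate and a 95% interval derived from its F statistic, over 10 libraries without the pairing. Colored points are the 5 animals, each as the difference between its own 2 libraries. The intervals of Cxcl1, Cxcl2 and Cxcl3 lie above 0, those of Cxcl9 and Cxcl10 below 0, and that of Cxcl16 from -0.20 to 0.13 spans 0.

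Within animals, the log2 difference of Cxcl1 ranged from 1.08 (m236) to 1.69 (m234), that of Cxcl2 from 0.45 to 0.93 and that of Cxcl3 from 0.90 to 1.45. For all 3 genes, the difference was largest in m234 and smallest in m236. The difference of m234 uses the ARG1- library with the lowest total and the highest sum of microglia markers, and the part of these in it was not tested. The log2 difference of Cxcl9 ranged from -1.16 in m235 to -0.39 in m234, and that of Cxcl10 from -0.81 in m236 to -0.49 in m6. Cxcl16 ranged from -0.14 in m235 to 0.086 in m234.

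Ratios of counts were used to compare the size of the differences of the 3 CXCR2 ligands. Of their ratios, only that of Cxcl2 to Cxcl1 passed the test over splits. In each library the counts of Cxcl2 were divided by those of Cxcl1, which leaves out the scaling between libraries. This ratio ranged from 15.3 to 21.8 in ARG1+ and from 24.3 to 35.3 in ARG1- libraries, and it was lower in ARG1+ cells in 5 of 5 animals. The mean log2 ratio differed by -0.69 (2-sided exact permutation test over 252 splits of 5 against 5 libraries, p = 0.00794, the smallest these can give, and 0.0185 after Benjamini-Hochberg adjustment over 7 ratios). The ratio of Cxcl2 to Cxcl3 ranged from 27.4 to 50.2 and from 36.0 to 71.7, with a difference that did not pass the test over splits (log2 -0.47, exact permutation p = 0.103, adjusted 0.144), and it was lower in ARG1+ cells in 5 of 5 animals. The ratio of Cxcl1 to Cxcl3 was 1.31 to 2.80 and 1.13 to 2.37 (log2 0.22, exact permutation p = 0.429, adjusted 0.500), and it was higher in ARG1+ cells in 5 of 5 animals. These splits leave out the pairing of the libraries. A paired exact permutation test over the 32 sign flips of 5 animals gave p = 0.0625 for each of these 3 ratios, the smallest it allows, so that it cannot pass 0.05.

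Between the CXCR3 ligands, the ratio of Cxcl9 to Cxcl10 was 1.35 to 2.42 in ARG1+ and 1.26 to 2.28 in ARG1- libraries (log2 difference -0.054, exact permutation p = 0.817, also after adjustment). Ratios of Cxcl2 to ligands of other receptors restate the differences given above. Cxcl2 was higher in ARG1+ cells, Cxcl9 and Cxcl10 were lower, and no difference of Cxcl16 was detected. The p values of these ratios are therefore no further evidence, and the splits leave out the pairing. These ratios also count among the 7 of the adjustment, which lowers the adjusted p of the ratio of Cxcl2 to Cxcl1. Cxcl2 had 15.2 to 20 counts per count of Cxcl10 in ARG1+ cells and 5.56 to 8.38 in ARG1- cells (log2 difference 1.245, exact permutation p = 0.00794, adjusted 0.0185). Per count of Cxcl9 it had 6.30 to 14.8 against 2.78 to 6.67 (log2 difference 1.30, exact permutation p = 0.0159, adjusted 0.0278). Per count of Cxcl16 it had 2.82 to 4.09 against 1.68 to 2.52 (log2 difference 0.66, exact permutation p = 0.00794, adjusted 0.0185). All 3 ratios were higher in ARG1+ cells in 5 of 5 animals, with the same paired p.

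To compare levels between genes, CPM were divided by the length of the merged exons, from 953 bases in Cxcl1 to 2889 bases in Cxcl9. Cxcl2 was the first and Cxcl16 the second of the 6 in all 10 libraries. Per kb, Cxcl2 had 1039.8 ± 131 CPM in ARG1+ cells, against 677 ± 94.9 CPM in ARG1- cells, and Cxcl16 had 212 ± 21.0 and 217 ± 13.6 CPM (SD, n = 5 each). The order behind them differed between the groups. In ARG1+ cells Cxcl1 followed with 109 ± 24.9 CPM per kb, ahead of Cxcl10 (75.4 ± 7.87), Cxcl9 (71.7 ± 16.2) and Cxcl3 (54.8 ± 18.5). In ARG1- cells Cxcl10 (116 ± 9.69) and Cxcl9 (116 ± 28.1) came before Cxcl1 (43.8 ± 9.28) and Cxcl3 (26.1 ± 9.89). In all 5 ARG1- libraries only Cxcl3 stood below Cxcl1. In ARG1+ libraries Cxcl1 came directly after Cxcl16 in 4 animals, and in m236 Cxcl9 stood between them. The ranges of Cxcl9 and Cxcl10 overlapped in both groups, and in ARG1+ cells that of Cxcl3 (38.9 to 77.0) overlapped both.

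**Figure D3:**
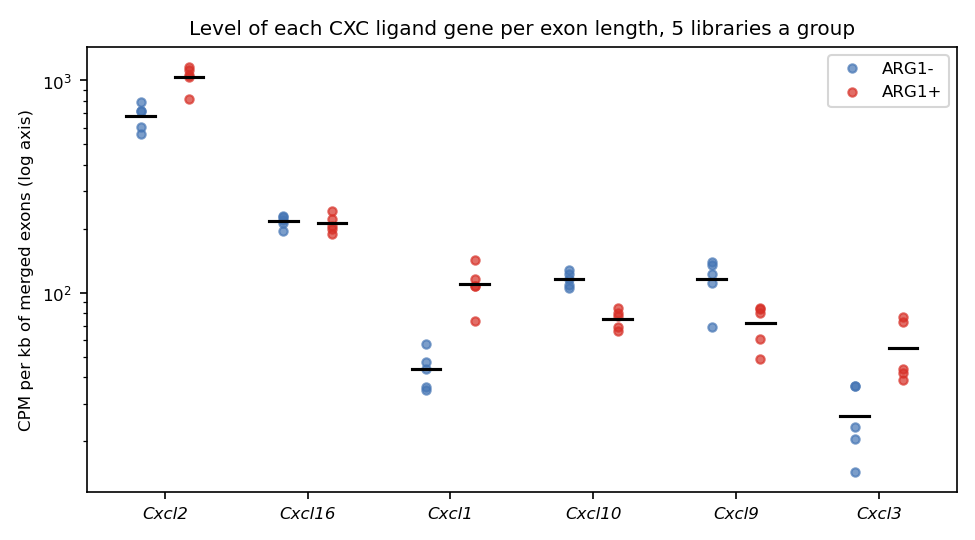
CPM per kb of merged exons (log axis) of the 6 CXC ligand genes in 5 ARG1- and 5 ARG1+ libraries. Points are libraries and black lines are group means. Cxcl2 and Cxcl16 stand above the other 4 genes in both groups, and Cxcl1 lies below Cxcl9 and Cxcl10 in ARG1- cells, at 43.8 against 116 CPM per kb, and above them in ARG1+ cells, at 109 against 71.7 and 75.4.

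Of 9 further CXC ligands on a list, 3 were abundant enough to be tested. Pf4, a ligand of platelets and macrophages that lacks ELR, had 17.3 ± 6.18 CPM in ARG1+ cells, against 4.47 ± 2.31 CPM in ARG1- cells (SD over n = 5 each, log2 fold change 1.88, edgeR FDR 0.00324). Cxcl11, another CXCR3 ligand whose locus is annotated as a polymorphic pseudogene, had 1.31 ± 0.314 and 3.67 ± 1.02 CPM (log2 fold change -1.48, edgeR FDR 0.00261) and was lower in 5 of 5 animals, as were Cxcl9 and Cxcl10. Cxcl14 had 19.2 ± 6.86 and 11.9 ± 3.44 CPM (log2 fold change 0.69, edgeR FDR 0.105), and its FDR under a replicate block by animal was 2.85e-04. The others were not tested. Cxcl13 had means of 0.180 and 1.48 CPM, Cxcl12 of 0.126 and 0.177, Ppbp of 0.0712 and 0.0237 and Cxcl5 of 0.0195 and 0.0111 CPM. Cxcl17 was at 0 in ARG1+ and 0.00668 CPM in ARG1- cells, and Cxcl15 had no count.

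Among 8 receptors of CXC ligands, 3 were tested and 1 was called higher, where 6.82% of all tested genes were. Ackr3, an atypical receptor that takes up CXCL11 and CXCL12, had 9.18 ± 2.79 CPM in ARG1+ cells, against 2.49 ± 0.824 CPM in ARG1- cells (SD over n = 5 each, log2 fold change 1.92, edgeR FDR 0.00149). Cxcr4, the receptor of CXCL12, was the most abundant with 396.2 ± 53.0 and 340.6 ± 42.1 CPM (log2 fold change 0.22, edgeR FDR 0.191, and 0.00464 with the replicate block). Cxcr3, the receptor of Cxcl9 and Cxcl10, had 2.08 ± 0.797 and 1.92 ± 0.318 CPM (log2 fold change 0.13, edgeR FDR 0.766). Cxcr2, the receptor of Cxcl1, Cxcl2 and Cxcl3, was below the filter with 0.141 ± 0.0607 CPM in ARG1+ cells, against 0.828 ± 0.286 CPM in ARG1- cells (SD over n = 5 each), 22 and 110 counts in all. Cxcr6, the receptor of Cxcl16, had 0.150 and 0.160 CPM, Ackr1 had 0.356 and 0.448, Cxcr5 had 0.0585 and 0.0693, and Cxcr1 had no count.

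Of 4 genes for the shedding of Cxcl16 and other membrane proteins, Rhbdf2, a cofactor of ADAM17, was lower in ARG1+ cells (162.7 ± 11.3 against 200.4 ± 18.4 CPM, SD, n = 5 each, log2 fold change -0.30, edgeR FDR 0.0198). The proteases themselves were not called. Adam10 had 283.3 and 285.0 CPM (log2 fold change -0.0081, edgeR FDR 0.953) and Adam17 had 353.0 and 359.2 CPM (log2 fold change -0.025, edgeR FDR 0.811). Rhbdf1 had 0.953 and 1.70 CPM (log2 fold change -0.70, edgeR FDR 0.153), and with the replicate block its FDR was 0.0428.

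RNA levels of a route do not measure its activity, which was not tested. For the route by which interferons induce Cxcl9 and Cxcl10, 12 genes of interferon receptor signalling were compared. Of these, 0 were higher and 2 were lower at an edgeR FDR below 0.05, with a median log2 fold change of -0.16, against 937 higher, 845 lower and a median of -0.0022 over all 13740 genes. The 2 genes were Jak2, the kinase bound to the interferon gamma receptor (log2 fold change -0.64, edgeR FDR 4.88e-04), and Irf9, a transcription factor of the interferon response (log2 fold change -0.29, edgeR FDR 0.0380). Jak1 was the most abundant of the 12 (log2 fold change -0.013, edgeR FDR 0.880). With the replicate block 6 of the 12 were lower, where 18.3% of all tested genes were.

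Other interferon targets were counted in the same way, beside 6.15% of all tested genes that were lower and 6.82% that were higher. Of 15 tested genes that respond to interferon gamma, 5 were lower and 0 higher, with a median log2 fold change of -0.40. They were the GTPases Igtp (log2 fold change -0.66, edgeR FDR 0.0156), Gbp3 (-0.56, FDR 0.0167), Irgm1 (-0.51, FDR 0.0281), Gbp5 (-0.46, FDR 0.0327) and Gbp4 (-0.61, FDR 0.0414). Nos2, the most abundant of the list and the gene of the inducible nitric oxide synthase, had 1475.2 and 1358.9 CPM (log2 fold change 0.12, edgeR FDR 0.774). Of 13 type I interferon targets, 2 were lower and 0 higher, with a median of -0.64. These were Oasl1 (log2 fold change -1.11, edgeR FDR 0.0351) and Isg15 (log2 fold change -0.89, edgeR FDR 0.0420), while Irf7, the most abundant, had -0.41 (edgeR FDR 0.301). The type I targets of m235 stood apart, with a sum of 1878.7 CPM in its ARG1+ library, against 550 to 771.8 CPM in the other 4, and of 1935.4 CPM in its ARG1- library, against 955.3 to 1213.2 CPM. Without both libraries of m235, an omission chosen after these sums were seen, 11 of the 13 type I targets were lower, with a median log2 fold change of -0.87, and 2 of the 15 interferon gamma targets were lower, with a median of -0.37. Over all genes this fit called 704 higher and 649 lower. With the replicate block over all 5 animals, 13 of the 15 and 11 of the 13 were lower, where 18.3% of all tested genes were. Cxcl9 and Cxcl10 are themselves interferon targets and were not on these lists.

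**Figure D4:**
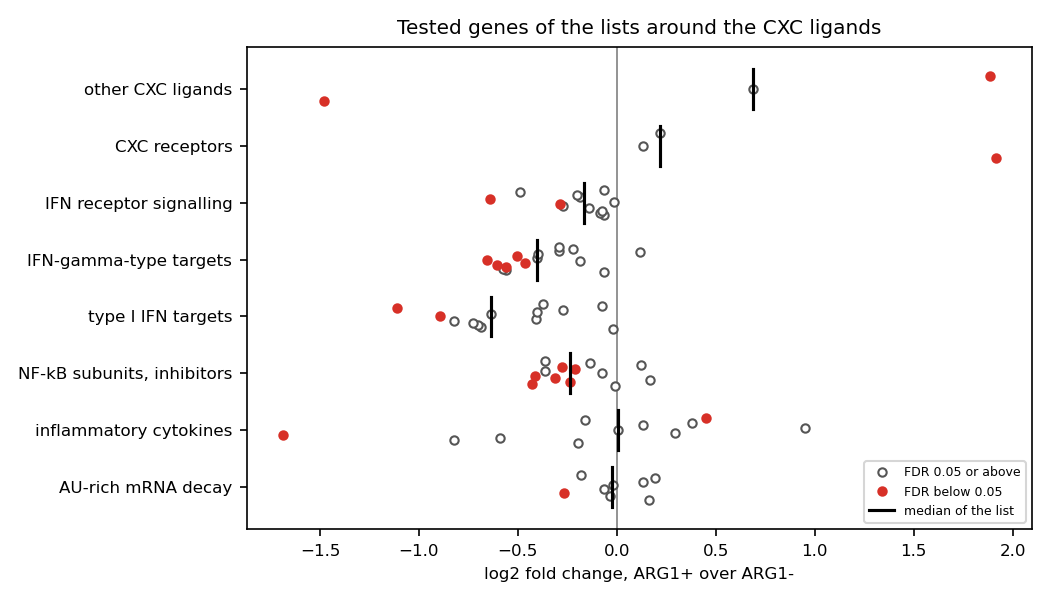
Log2 fold change (ARG1+ over ARG1-, edgeR) of every tested gene of 8 lists around the CXC ligands. Each point is a gene, filled where its FDR was below 0.05, and black lines are list medians. The medians of the interferon gamma-type and type I targets lie at -0.40 and -0.64, and that of the inflammatory cytokine genes at 0.0044.

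RNA levels do not measure the activity of NF-kB, which is known to induce Cxcl1, Cxcl2, Cxcl3 and Cxcl10. This activity was not tested, and only RNA was compared, for 13 genes of its subunits and feedback inhibitors. Of these, 6 were lower in ARG1+ cells and 0 higher, where 6.15% and 6.82% of all tested genes were. The median log2 fold change of the list was -0.24. The subunit genes were Nfkb1 (log2 fold change -0.43, edgeR FDR 0.00417), Nfkb2 (-0.24, FDR 0.0214), Rela (-0.21, FDR 0.0219) and Relb (-0.28, FDR 0.0392), and the inhibitors were Nfkbie (-0.41, FDR 0.00537) and Nfkbib (-0.31, FDR 0.00725). Tnfaip3, the most abundant, had 758.8 and 698.5 CPM (log2 fold change 0.12, edgeR FDR 0.231). With the replicate block, 9 genes of the list were lower and 2 were higher, the inhibitors Nfkbia (log2 fold change 0.17, edgeR FDR 0.0121) and Tnfaip3 (0.12, FDR 0.0416). Under this block 18.3% of all tested genes were lower and 16.8% higher.

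Of 11 tested inflammatory genes that are often induced with the CXCR2 ligands, 1 was higher and 1 lower, with a median log2 fold change of 0.0044. Over all tested genes, 6.82% were higher and 6.15% lower. Vegfa, an angiogenic factor, had 1331.5 ± 144.1 and 975.7 ± 70.5 CPM (SD over n = 5 each, log2 fold change 0.45, edgeR FDR 0.00599), and Il12b, a subunit of IL-12 and IL-23, had 0.721 and 2.28 CPM (log2 fold change -1.69, edgeR FDR 0.0251). Il1b, the most abundant, had 2278.9 and 2271.7 CPM (log2 fold change 0.0044, edgeR FDR 0.992). With the replicate block 4 of the inflammatory genes were higher and 3 lower, where 16.8% and 18.3% of all tested genes were. Beside Vegfa, the higher genes were Il6 (log2 fold change 0.91, edgeR FDR 1.42e-04), Il1a (0.30, FDR 0.00752) and Ptgs2 (0.36, FDR 0.00986). Beside Il12b, the lower genes were Tnf (log2 fold change -0.17, edgeR FDR 0.0119) and Ccl4 (-0.67, FDR 0.0283). Of 8 genes listed for the decay and stability of AU-rich mRNAs, Hnrnpd was lower (log2 fold change -0.27, edgeR FDR 0.00853) and 7 were not called, among them Zfp36, the most abundant (log2 fold change 0.13, edgeR FDR 0.183). The median was -0.026. With the replicate block 3 were higher, among them the phosphatase gene Dusp1, and 2 were lower, beside the same shares of all tested genes.

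Markers of some cells that could enter the gate differed between the groups, and their part in the differences of the ligands was not tested. The ranges of the sums were apart only for border-associated macrophage, dendritic cell and B cell markers. Beside the counts of called markers, 6.82% of all tested genes were higher and 6.15% lower at an edgeR FDR below 0.05. Border-associated macrophage markers (9 genes) summed to 1619.6 to 2609.7 CPM in ARG1+ and 901.6 to 1576.3 CPM in ARG1- libraries, with 3 of 5 tested higher, Pf4, Mrc1 and Stab1, so that this list and the CXC ligands share Pf4. F13a1, with means of 1021.2 and 595.1 CPM (edgeR FDR 0.0511), and Stab1, with 840.6 and 548.1 CPM, made up most of it. Below the filter were Cd163 (0.0387 and 0.00556 CPM), Lyve1 (0.0967 and 0.0486), Folr2 (0.152 and 0.0564) and Cbr2 (0.904 and 0.630). Monocyte markers (8 genes) summed to 12160 to 15933.6 and 8276.2 to 13108.2 CPM, although 4 of 8 were lower, among them Plac8, Ccr2 and Vcan, and 0 higher. Most of this sum came from Fn1, with means of 9213.8 and 6693.1 CPM (log2 fold change 0.46, edgeR FDR 0.0776). Dendritic cell markers had 4 of 8 tested lower, and of 9 microglia markers none was called. With the replicate block 7 microglia markers were lower, where 18.3% of all tested genes were. Neutrophil markers (12 genes) summed to 301.5 to 453.3 and 262.6 to 372 CPM, mostly from Mmp8 and Csf3r, with 1 of 4 tested lower, S100a9, and Ly6g, which the gate excludes, at 0.0566 and 0.0285 CPM. T and NK cell markers, from the cells that CXCR3 ligands attract, summed to 1.18 to 1.96 and 1.14 to 3.42 CPM, and none of the 9 was tested. B cell markers summed to 4.91 to 13 and 19.5 to 52.3 CPM (2 of 3 tested lower), endothelial markers to 71.1 to 130.2 and 114.7 to 153.7 CPM (2 of 4 lower), astrocyte markers to 18.5 to 28.6 and 22.3 to 32.0 CPM (1 of 5 higher) and oligodendrocyte markers to 147.4 to 180.2 and 137.5 to 196.9 CPM (0 of 5 called).

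The genes whose profile lay closest to that of each ligand were found by the root mean square distance of log2 CPM, each gene centered on its own mean over the 10 libraries. For Cxcl1 these were Gja1, Bcar3 and Nt5e (distance 0.192 to 0.225), for Cxcl2 Galnt6, Tnfaip6 and Nrp2 (0.0811 to 0.102) and for Cxcl3 Ccl6, Hilpda and F7 (0.158 to 0.260). The median gene lay at 0.738, 0.399 and 0.740 from them, respectively. For Cxcl9 they were Slc30a1, Calhm6 and Gm12250 (0.165 to 0.184, median gene 0.520), and for Cxcl10 Mthfd2, Jak2 and Samhd1 (0.0857 to 0.107, median gene 0.387). For Cxcl16 they were Gm10221, Kmt2e and Tmem234 (0.0516 to 0.0557, median gene 0.215). Cxcl2 ranked 55th and Cxcl3 74th of all tested genes by closeness to Cxcl1, and Cxcl1 ranked 71st and Cxcl2 102nd by closeness to Cxcl3. By closeness to Cxcl2, however, Cxcl1 ranked 6494th and Cxcl3 8597th, behind Cxcl16 at 6395th. The profiles were centered but not scaled, so the distance also depends on the size of a difference. A gene without a difference can lie as close as one with a larger difference in the same direction. Cxcl10 ranked 76th by closeness to Cxcl9, and Cxcl9 ranked 2927th by closeness to Cxcl10. The libraries of 1 animal and of 1 group share their source, so these distances over 10 libraries are descriptions.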

How the data were processed

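Bulk RNA was sequenced from 10 libraries, 5 of ARG1+ and 5 of ARG1- cells of the same 5 animals. The authors deposited whole-number counts per gene without normalization, from stranded libraries read for 50 bases at 1 end, aligned to GRCm38 and counted against the basic Ensembl annotation with summarizeOverlaps, ignoring secondary alignments. The submitters' processing notes name STAR 2.7.10b and Picard.

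The genes tested had CPM above 1 in 3 or more libraries, the limit of the study. They were tested with edgeR 4.0.16 (R 4.3.3; glmQLFit and glmQLFTest, TMM sizes, no block) at a Benjamini-Hochberg FDR below 0.05. The replicates are separate animals. Alternatives were DESeq2 1.42.0, limma-trend (limma 3.58.1, prior count 2), other library sizes and filters, the animal as a replicate block, and omission of each library or animal. The titles give both libraries of an animal the same number, and their residuals from the group means correlated at 0.361 to 0.664 across genes, against -0.367 to 0.0675 between animals, so the numbers pair the libraries. Log2 CPM profiles used a prior count of 2.

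The members and lists were chosen with earlier results of these data known. From each pathway list, genes with an FDR below 0.05 (at most 8) and the most abundant tested gene are named, and every CXC ligand and receptor, with the 3 nearest profiles of each member. Marker lists are given by counts and sums, and not all of their called genes are named. Values of some listed genes are not reported here. Zmynd15, Art3, Adam10, Rhbdf1, Nfkbia, Ly6g, Csf3r, Mmp8, F13a1, Cd163, Lyve1, Folr2, Cbr2 and Fn1 were named after their values were seen. The same holds for Il6, Il1a, Ptgs2, Tnf, Ccl4 and Dusp1. Exons, transcripts and coding sequences came from GENCODE M21 (GRCm38), whose coordinates equal those of the table for all 6 genes, and promoters from RefSeq.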

Additional observations from a re-analysis of the deposited data

How the results depend on the processing

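The count of 5 called ligands (3 higher, 2 lower) was also obtained with DESeq2, limma-trend, RLE or plain library sizes, both other filters and the animal as a replicate block, and it was 2 with the added limit of an absolute log2 fold change above 1. Over all genes these fits called 937 higher and 845 lower (reported fit), 1276 and 1307 (DESeq2), 914 and 841 (limma-trend), 934 and 857 (RLE), 701 and 1282 (plain totals), 903 and 810 or 795 and 684 (other filters) and 2307 and 2519 (block). With a library or an animal left out, the count of called ligands ranged from 3 to 5. Under these omissions the log2 fold change ranged from 1.20 to 1.44 for Cxcl1, 0.55 to 0.69 for Cxcl2, 0.89 to 1.19 for Cxcl3, -0.82 to -0.56 for Cxcl9, -0.66 to -0.58 for Cxcl10 and -0.085 to 0.0053 for Cxcl16. Cxcl1, Cxcl2 and Cxcl10 kept their call under every omission (edgeR FDR at most 0.0107, 0.0352 and 0.00845), Cxcl3 lost it in 7 of 15 and Cxcl9 in 11 of 15. Cxcl16 changed sign only without the ARG1+ library of m2 (0.0053, FDR 0.977). These fits hold fewer libraries. The paired fit changed no call of a ligand. In an alternative chosen after seeing the data, the replicate block with each animal left out, all 5 calls were made in every fit, with Cxcl3 at 1.01 to 1.10 and Cxcl9 at -0.75 to -0.55. In the ARG1- library of m234, the shallowest, 1 CPM stands for 8.5 counts.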
